A study of Arabidopsis thaliana with 21 samples.

Results

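The genes followed here in root RNA are 9 regulators and protective proteins of the light response of Arabidopsis thaliana: ELIP1 (AT3G22840), ELIP2 (AT4G14690), PIL1 (AT2G46970), HFR1 (AT1G02340), HY5 (AT5G11260), HYH (AT3G17609), PIF3 (AT1G09530), PIF4 (AT2G43010) and PIF5 (AT3G59060). These 9 of the 32833 genes in the count table were picked by name, with earlier results of the same libraries in view. PIL1 was known from its fall with AtCEP5 at 12 h, and for the other genes the values behind the choice are not recorded. Calls and p-values of the 9 genes therefore describe these libraries and are no independent evidence.

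The roots were sampled before treatment (0 h) and at 6, 12 and 24 h of mock treatment or of treatment with AtCEP5, a secreted signalling peptide of the CEP family. There were 7 groups of 3 libraries and 21 libraries in total. The sources used here name no ecotype, plant age, light regime, time of day, AtCEP5 dose or content of the mock. Whether the replicates came from separately grown plants is not stated in the labels, and p-values here measure a spread that may be technical. Libraries held 10334319 to 14345476 counts. The labels name the root meristem cell as cell type, and meristem genes such as PLT1 and WOX5 were read in every library, with 39.5–59.0 summed FPKM (reads scaled by gene length and library depth) over 6 genes. The 6 markers of differentiated root, among them CASP1 of the endodermis and EXPA7 of root hairs, summed to 328–822 FPKM, so the libraries were not of meristem alone. Of these markers PHT1;1 had the highest median, 414 FPKM, against 92.5 for CASP1 and 46.0 for EXPA7. The shoot meristem genes STM, WUS and CLV3 summed to at most 0.266 FPKM in any library. The 20 photosynthesis genes read as a mark of green tissue summed to 325–809 FPKM in the mock and AtCEP5 libraries. Before treatment they summed to 741, 866 and 2765 FPKM, so the third library taken before treatment stood apart in green tissue genes. Over all genes the first one did, with a chi-square per gene of 34.7 and 31.8 against the other two, which differed by 14.8 from each other.

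Light is read by phytochromes and cryptochromes, and it stops the COP1/SPA ubiquitin ligase from marking light-promoting factors for destruction. Among these factors are HY5 and its homologue HYH, which are bZIP transcription factors, and HFR1, an atypical basic helix-loop-helix (bHLH) protein. PIF3, PIF4 and PIF5 are bHLH factors that bind phytochrome, are degraded in the light and promote growth in the dark and in shade. PIL1 is a bHLH protein of the same family, known as a gene that shade induces quickly, and HFR1 holds PIF4 and PIF5 away from DNA. ELIP1 and ELIP2 are chlorophyll-binding proteins of the thylakoid that strong light induces and that protect against it. HY5 also acts in roots, which carry photoreceptors.

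ELIP1, ELIP2, PIL1 and HFR1 were the members that passed between AtCEP5 and mock in edgeR with all libraries, and the 250 bases before their annotated starts are shown because the first 3 fell together and HFR1 went the other way. The sequences were read 5′ to 3′ on the gene's strand from TAIR10.1, the RefSeq reference. The window of ELIP1 is chr3:8085670-8085919 (minus strand), that of ELIP2 chr4:8417992-8418241 (plus strand), that of PIL1 chr2:19297859-19298108 (minus strand) and that of HFR1 chr1:467881-468130 (minus strand). Capitals mark the G-box CACGTG, its core ACGT and the PIF-binding E-box CACATG or CATGTG, searched on both strands.
ELIP1: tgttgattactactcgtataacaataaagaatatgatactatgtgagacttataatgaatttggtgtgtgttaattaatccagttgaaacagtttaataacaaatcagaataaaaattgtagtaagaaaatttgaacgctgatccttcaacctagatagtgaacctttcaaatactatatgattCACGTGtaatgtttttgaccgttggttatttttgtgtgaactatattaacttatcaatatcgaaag
ELIP2: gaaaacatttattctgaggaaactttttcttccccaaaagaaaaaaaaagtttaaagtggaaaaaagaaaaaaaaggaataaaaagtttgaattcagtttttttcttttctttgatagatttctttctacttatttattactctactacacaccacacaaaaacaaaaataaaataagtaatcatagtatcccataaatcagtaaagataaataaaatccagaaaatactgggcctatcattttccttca
PIL1: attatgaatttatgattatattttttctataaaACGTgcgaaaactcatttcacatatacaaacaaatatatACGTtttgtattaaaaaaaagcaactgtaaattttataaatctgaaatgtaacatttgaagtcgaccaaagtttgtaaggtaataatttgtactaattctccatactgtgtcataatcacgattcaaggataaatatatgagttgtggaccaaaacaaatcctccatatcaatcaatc
HFR1: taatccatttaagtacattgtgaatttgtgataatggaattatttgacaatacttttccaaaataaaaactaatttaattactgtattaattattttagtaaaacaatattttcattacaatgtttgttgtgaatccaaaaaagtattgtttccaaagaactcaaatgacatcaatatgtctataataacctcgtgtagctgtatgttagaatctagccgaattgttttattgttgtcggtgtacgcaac
The window of ELIP1 held 1 G-box, beginning at position -66 from the start of the gene. PIL1 held the ACGT core at positions -217 and -178. ELIP2 and HFR1 held none of these letters, so the ELIP pair had no marked motif in common. Over all 9 genes, 2 held a G-box (ELIP1 and PIF5), against 6.49% of 27443 gene starts. The ACGT core, which every G-box contains, was in 6 of 9 windows against 44.1% of all, and the E-box was in 1, that of HY5, against 11.1%. The evening element AAAATATCT was in 0 of 9 windows and in 2.36% of all. Nothing about binding follows from a match or its absence in these windows.

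In TAIR10.1 ELIP1 lies at chr3:8084405-8085669 on the minus strand, ELIP2 at chr4:8418242-8419325 on the plus strand, PIL1 at chr2:19295431-19297858 on the minus strand and HFR1 at chr1:465616-467880 on the minus strand. HY5 lies at chr5:3593335-3595073 on the minus strand and HYH at chr3:6023844-6024710 on the plus strand. PIF3 lies at chr1:3075768-3079654 and PIF4 at chr2:17886101-17889087, both on the plus strand, and PIF5 at chr3:21827905-21830837 on the minus strand. None of the 9 genes overlaps another annotated gene. ELIP1 and ELIP2 shared 78.9% of 564 aligned coding bases, with a longest identical run of 26 bases between their transcripts. PIF4 and PIF5 shared 78.8% with a run of 23 bases, and HY5 and HYH shared 66.5% with a run of 17 bases. How reads that match both genes of a pair were counted is not stated in those sources.

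Levels per length differed widely between the members. Over the 21 libraries HYH had a mean of 72.2 FPKM, HY5 66.5, ELIP1 53.3, ELIP2 25.9 and HFR1 12.6. PIF3 had 1.61 FPKM, PIL1 0.715, PIF5 0.333 and PIF4 0.125. The 4 rarest were thus PIL1 and the PIF genes, and PIL1 and PIF5 had as few as 3 and 1 reads in a library. PIF4 had 87 reads in all and did not pass the filter on low counts, so 8 of the 9 members were tested.

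**Figure D1:**
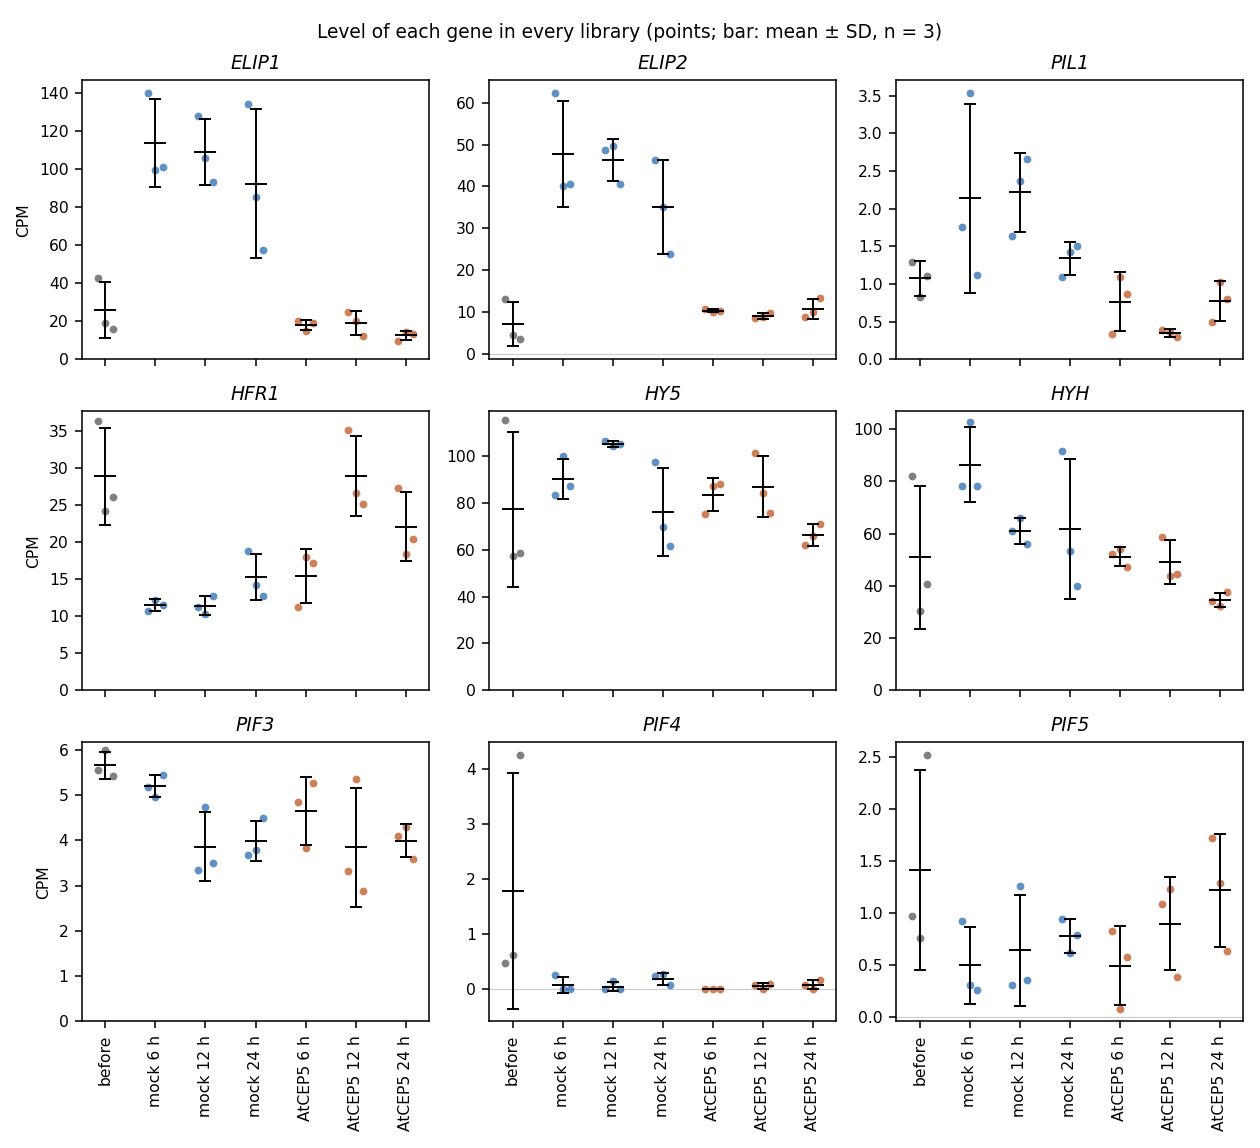
Level of each of the 9 genes in every library, in CPM (counts scaled to the library's depth, linear axes that differ between panels), by group. Points are libraries and bars are the mean ± SD of 3 libraries. ELIP1 lay at 57.1–140.1 CPM in the 9 mock libraries and at 9.76–25.0 in the 9 AtCEP5 libraries, while PIF4 stood clear of 0 mainly in 1 library taken before treatment.

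The ELIP genes rose in mock roots and stayed low with AtCEP5. ELIP1 was at 42.7, 18.7 and 15.7 CPM before treatment. In mock roots it was at 140.1, 99.6 and 101 CPM at 6 h, at 128, 106 and 93.1 at 12 h and at 134, 85.1 and 57.1 at 24 h. With AtCEP5 it was at 19.8, 14.7 and 19.0 CPM at 6 h, at 25.0, 20.1 and 12.3 at 12 h and at 9.76, 14.4 and 13.3 at 24 h. Every mock library was above every AtCEP5 library and every library taken before treatment. The AtCEP5 libraries overlapped those taken before treatment at 6 and 12 h and lay below them at 24 h. In the order of group means AtCEP5 24 h was lowest, then AtCEP5 6 h, AtCEP5 12 h, before treatment and the 3 mock groups, and the only neighbours whose libraries did not overlap were AtCEP5 24 h with AtCEP5 6 h, and before treatment with mock 24 h.

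ELIP2 was at 13.1, 4.48 and 3.46 CPM before treatment. Mock libraries held 62.4, 40.2 and 40.6 CPM at 6 h, 48.8, 49.7 and 40.6 at 12 h and 46.2, 35.1 and 23.7 at 24 h. AtCEP5 libraries held 10.6, 9.91 and 10.2 CPM at 6 h, 8.42, 8.67 and 9.78 at 12 h and 8.78, 9.89 and 13.2 at 24 h. The 9 AtCEP5 libraries lay within 8.42–13.2 CPM, all below the lowest mock library. The first library taken before treatment, at 13.1 CPM, was within the AtCEP5 range, and the other two were below it. In the order of means before treatment came first, then AtCEP5 12 h, 6 h and 24 h, then mock 24 h, 12 h and 6 h, and neighbours overlapped except AtCEP5 12 h with 6 h and AtCEP5 24 h with mock 24 h.

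Against mock, ELIP1 was 6.35-fold lower with AtCEP5 at 6 h (log2 fold change −2.67 ± 0.33 SE), 5.66-fold lower at 12 h (−2.50 ± 0.33) and 7.37-fold lower at 24 h (−2.88 ± 0.34). ELIP2 was 4.66-fold lower at 6 h (−2.22 ± 0.32), 5.18-fold lower at 12 h (−2.37 ± 0.32) and 3.29-fold lower at 24 h (−1.72 ± 0.31). Both passed an adjusted p of 0.05 at each time in edgeR's quasi-likelihood test and in all 16 alternative settings tried per comparison, where ELIP1 ranged from −3.14 to −2.24 and ELIP2 from −2.44 to −1.47. In these bulk root libraries fewer cells with the transcript and less transcript per cell cannot be told apart. Of 19 photosynthesis genes tested, 0 passed between AtCEP5 and mock at any time by edgeR, with 0, 10 and 0 at an unadjusted p under 0.05 and 0, 1 and 0 by DESeq2 at 6, 12 and 24 h. Their median log2 values were 0.18, 0.57 and −0.08, and all 19 values were above 0 at 12 h. With a replicate block over the 6 libraries compared, 4 photosynthesis genes were higher and 1 lower of 18 tested at 6 h. Over the whole table that block called 4802 genes at 6 h, against 2247 with all libraries and no block. Summed markers of differentiated root were at 736–822 FPKM in mock and 688–732 with AtCEP5 at 6 h, 561–605 and 435–619 at 12 h, and 443–783 and 458–539 at 24 h. PHT1;1, with the highest median of these markers (414 FPKM), weighs most in the sums. Over all genes 5.33%, 5.41% and 4.12% passed as lower with AtCEP5 at 6, 12 and 24 h. Of the 6 markers 2, 1 and 0 did, and 0 passed as higher (medians −0.18, −0.11 and −0.39). The 2 were root hair genes, EXPA7 (−0.63 ± 0.17, edgeR adjusted p = 0.0148) and COBL9 (−0.65 ± 0.19, 0.0269), and COBL9 passed again at 12 h (−0.57 ± 0.19, 0.0486). EXPA7 overlaps a gene on the opposite strand. The 6 h calls were lost on leaving out single libraries, 3 of the 6 for EXPA7 (up to 0.103) and 4 of the 6 for COBL9 (up to 0.16). The part of these cells or of green tissue in the ELIP result was not tested.

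Relative to before treatment, ELIP1 was 4.43-fold higher in mock roots at 6 h (log2 2.15 ± 0.32, edgeR adjusted p = 1.78e-05), 4.24-fold higher at 12 h (2.09 ± 0.32, 3.07e-05) and 3.60-fold higher at 24 h (1.85 ± 0.32, 1.29e-04). ELIP2 was 6.85-fold higher at 6 h (2.78 ± 0.33, edgeR adjusted p = 8.93e-07), 6.64-fold higher at 12 h (2.73 ± 0.33, 1.35e-06) and 5.02-fold higher at 24 h (2.33 ± 0.33, 1.11e-05). Without the first library taken before treatment the log2 values of ELIP2 were 3.58, 3.53 and 3.13. Over all genes 20.5%, 19.7% and 18.5% were lower and 18.2%, 17.7% and 16.6% higher in mock roots at 6, 12 and 24 h. Of 19 photosynthesis genes 16, 19 and 9 were lower and 0 higher, with medians of −1.46, −1.53 and −0.69. Without the third library taken before treatment 11, 12 and 1 were lower and 1, 0 and 0 higher, with medians of −0.68, −0.66 and 0.01. With AtCEP5 the only ELIP difference from before treatment that passed was ELIP1 at 24 h (−1.04 ± 0.33, edgeR adjusted p = 0.0241), and it was −0.46 (adjusted p = 0.305) without the first library taken before treatment. Without that library ELIP2 passed as higher than before treatment with AtCEP5 too, by 1.36 at 6 h, 1.18 at 12 h and 1.41 at 24 h (edgeR adjusted p of 0.00116, 0.0048 and 8.74e-04). Without AtCEP5 24 h replicate 1 the ELIP1 difference at 24 h was −0.89 (adjusted p = 0.105). These comparisons share the libraries taken before treatment, and the mock libraries also enter the comparison with AtCEP5.

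The balance of the pair was not constant. The ratio of ELIP1 to ELIP2 in FPKM was 3.5 ± 0.58 (SD, n = 3) before treatment and 2.11 ± 0.12, 2.06 ± 0.22 and 2.26 ± 0.25 in mock roots at 6, 12 and 24 h. With AtCEP5 it was 1.53 ± 0.19 at 6 h, 1.92 ± 0.76 at 12 h and 1.05 ± 0.21 at 24 h. The ratios before treatment, 2.86, 3.68 and 3.97, were above those of every other library. The 24 h AtCEP5 ratios, 0.977, 1.28 and 0.884, were below all 9 mock ratios. No test of the ratio was run.

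**Figure D2:**
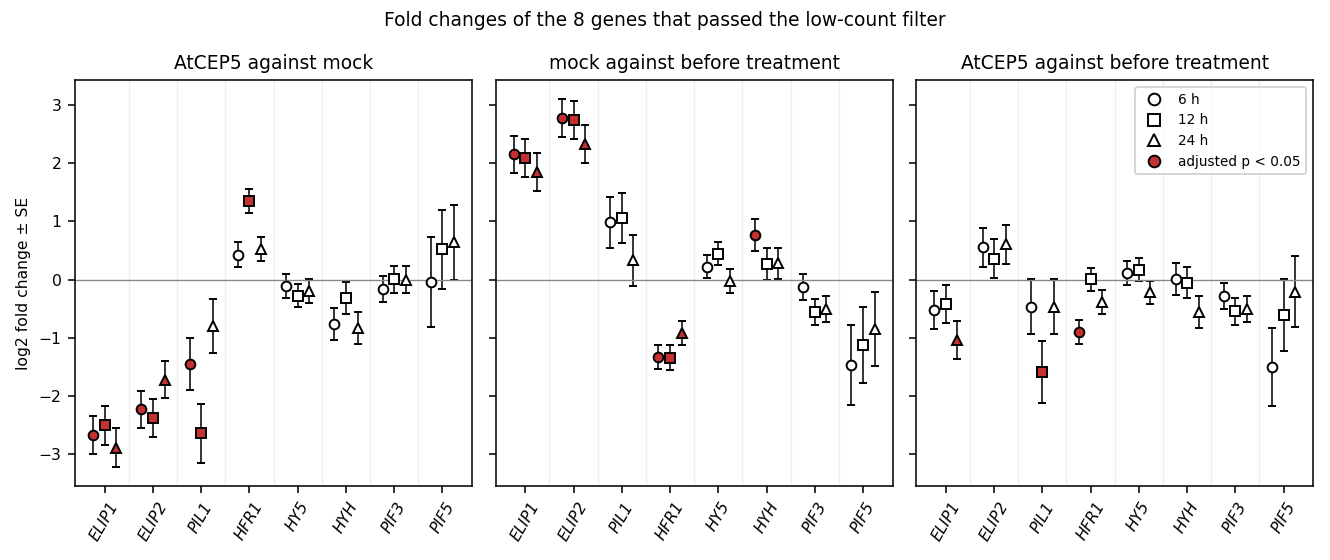
Log2 fold changes ± SE of the 8 tested genes, by comparison (panels) and time (symbols), with filled symbols for an adjusted p under 0.05 in edgeR. ELIP1 and ELIP2 lie between −2.88 and −1.72 for AtCEP5 against mock and between 1.85 and 2.78 for mock against before treatment, and HFR1 is the only gene above 0 by a passing value in the first panel.

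PIL1 fell with the ELIP genes at 6 and 12 h, at a far lower level. It was at 1.29, 0.826 and 1.1 CPM before treatment. In mock roots it was at 1.75, 3.54 and 1.12 CPM at 6 h, at 1.63, 2.36 and 2.66 at 12 h and at 1.09, 1.42 and 1.5 at 24 h. With AtCEP5 it was at 0.329, 1.09 and 0.867 CPM at 6 h, at 0.386, 0.361 and 0.288 at 12 h and at 0.492, 1.03 and 0.797 at 24 h. AtCEP5 and mock libraries did not overlap at any of the 3 times, but at 6 h the gap was 1.09 against 1.12 CPM. The 12 h AtCEP5 libraries held 5, 5 and 3 reads of the gene. From lowest to highest the means ran AtCEP5 12 h, 6 h and 24 h, before treatment, mock 24 h, 6 h and 12 h, and each overlapped its neighbour.

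The log2 difference of PIL1 between AtCEP5 and mock was −1.45 ± 0.45 at 6 h, −2.64 ± 0.50 at 12 h and −0.79 ± 0.46 at 24 h. The 6 h and 12 h values passed in edgeR and the 24 h value did not. The 12 h call was kept in all 16 alternatives, from −2.80 to −0.93, the smallest being on the log2 FPKM + 1 scale, which understates low genes. At 6 h the call rested on single libraries: the value was −0.90 (edgeR adjusted p = 0.276) without mock replicate 2, one of 2 libraries high in ribosomal RNA (2.20% and 1.96% of counts against 0.270–0.601% in the others), and −1.10 (0.158) without AtCEP5 replicate 1. It also missed without AtCEP5 replicate 3 (0.0919) or mock replicate 1 (0.061). At 12 h PIL1 with AtCEP5 was also below its level before treatment (−1.59 ± 0.53, edgeR adjusted p = 0.0344). That call was lost on leaving out AtCEP5 replicate 1 (0.0648), 2 (0.0908) or 3 (0.103), or replicate 1 (0.0999) or 3 (0.0743) of the libraries taken before treatment. In mock roots PIL1 was 0.98 ± 0.43 and 1.05 ± 0.43 above before treatment at 6 and 12 h and missed the threshold (edgeR adjusted p of 0.079 and 0.0564). The 6 h value passed without mock replicate 3 (1.29, 0.028) and the 12 h value when only the 6 libraries were fitted (1.05, 0.0498).

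HFR1 went the opposite way. It was at 36.4, 24.2 and 26.1 CPM before treatment. Mock roots had 10.7, 12.3 and 11.6 CPM at 6 h, 11.2, 10.3 and 12.8 at 12 h and 18.8, 14.3 and 12.8 at 24 h. AtCEP5 roots had 11.2, 17.9 and 17.1 CPM at 6 h, 35.2, 26.6 and 25.1 at 12 h and 27.3, 18.4 and 20.5 at 24 h. All 9 mock libraries lay below the 3 taken before treatment. The AtCEP5 libraries overlapped mock at 6 and 24 h, lay fully above mock at 12 h, and at 12 h were in the range from before treatment. The order of means was mock 12 h, 6 h and 24 h, AtCEP5 6 h and 24 h, before treatment and AtCEP5 12 h, and neighbours overlapped except mock 6 h with mock 24 h and AtCEP5 6 h with AtCEP5 24 h.

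HFR1 fell in mock roots 2.51-fold at 6 h (log2 −1.33 ± 0.21, edgeR adjusted p = 3.08e-05), 2.53-fold at 12 h (−1.34 ± 0.21, 3.15e-05) and 1.89-fold at 24 h (−0.92 ± 0.20, 0.00132). With AtCEP5 it fell at 6 h (−0.90 ± 0.20, adjusted p = 0.00205), whereas it differed from before treatment by 0.01 ± 0.20 at 12 h and −0.39 ± 0.20 at 24 h. Against mock it was 2.54-fold higher with AtCEP5 at 12 h (1.34 ± 0.21), a call kept in all 16 alternatives (1.19 to 1.46). The values at 6 h (0.43 ± 0.21) and 24 h (0.53 ± 0.20) did not pass. The AtCEP5 effect was 0.92 ± 0.30 larger at 12 h than at 6 h and 0.81 ± 0.29 larger than at 24 h, at unadjusted p of 0.00512 and 0.0103, and neither difference passed after adjustment over all genes (0.995 and 0.9999).

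HY5, with HYH the most abundant by FPKM, passed in 0 of the 9 edgeR comparisons with all libraries. It was at 116, 57.6 and 58.9 CPM before treatment. Its mock levels were 83.6, 99.96 and 87.4 CPM at 6 h, 107, 104 and 105 at 12 h and 97.6, 69.6 and 61.6 at 24 h. Its AtCEP5 levels were 75.4, 87.3 and 88.2 CPM at 6 h, 101, 84.1 and 75.8 at 12 h and 62.1, 65.9 and 71.3 at 24 h. Only at 12 h did every mock library exceed every AtCEP5 library, and the first library taken before treatment was the highest of all 21. In the order of means, from AtCEP5 24 h at the bottom to mock 12 h at the top, only mock 12 h was clear of its neighbour, mock 6 h. The AtCEP5 difference was −0.11 ± 0.20, −0.27 ± 0.20 and −0.20 ± 0.20 at 6, 12 and 24 h and did not pass at any time. HY5 did not pass against before treatment in edgeR with all libraries, while limma on log2 FPKM + 1 called it higher in mock roots at 12 h (0.51, adjusted p = 0.0418). Without the first library taken before treatment it was higher by 0.63 and 0.84 in mock roots at 6 and 12 h (edgeR adjusted p of 0.00571 and 6.43e-04) and by 0.52 and 0.60 with AtCEP5 (0.0275 and 0.0148).

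HYH, the homologue of HY5, was at 81.8, 30.2 and 40.5 CPM before treatment. The mock libraries stood at 78.0, 102.8 and 78.2 CPM at 6 h, at 60.8, 65.8 and 56.2 at 12 h and at 91.5, 53.5 and 40.1 at 24 h. The AtCEP5 libraries stood at 52.0, 54.1 and 47.1 CPM at 6 h, at 58.7, 43.8 and 44.5 at 12 h and at 34.1, 32.1 and 37.5 at 24 h. The AtCEP5 libraries were all below mock at 6 and 24 h and overlapped mock at 12 h. The order of means was AtCEP5 24 h and 12 h, before treatment, AtCEP5 6 h, then mock 12 h, 24 h and 6 h, and AtCEP5 24 h and AtCEP5 6 h were each clear of the group above. The log2 differences from mock were −0.76 ± 0.27, −0.31 ± 0.27 and −0.83 ± 0.28 at 6, 12 and 24 h, with edgeR adjusted p of 0.0769, 0.519 and 0.0686. At 6 h, where libraries of the same replicate number deviated together, a replicate block over the 6 libraries compared gave −0.75 ± 0.09 (edgeR adjusted p = 4.52e-05) and a block over all 21 gave an adjusted p of 0.0493. The fit of 6 libraries left few residual degrees of freedom, so its SE is uncertain. The sample labels do not say that equal replicate numbers were pairs. At 24 h DESeq2 gave an adjusted p of 0.0373, and without mock replicate 3 edgeR gave −1.07 (0.0214). HYH with AtCEP5 at 24 h differed from before treatment by −0.55 ± 0.28, which passed only without before-treatment replicate 2 (−0.84, edgeR adjusted p = 0.0268).

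In mock roots HYH rose at 6 h by 0.77 ± 0.27 over before treatment (edgeR adjusted p = 0.0296), a call that was lost without before-treatment replicate 2 (0.17), before-treatment replicate 3 (0.131) or mock replicate 2 (0.117). Without before-treatment replicate 1, the same library that was high for ELIP1, ELIP2 and HY5, HYH was also called higher in mock roots at 12 h (0.77, adjusted p = 0.0188) and 24 h (0.81, 0.0163). That library did not stand apart in the photosynthesis genes, with the lowest of the 3 sums, 741 FPKM. The HY5 to HYH ratio in FPKM was lowest in mock roots at 6 h (0.650 ± 0.046, SD, n = 3) and highest with AtCEP5 at 24 h (1.19 ± 0.07). The 3 mock 6 h ratios, 0.661, 0.600 and 0.689, were below all 3 AtCEP5 6 h ratios, 0.894, 0.996 and 1.16.

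The PIF genes were rare in these roots. PIF3 was at 5.55, 5.99 and 5.43 CPM before treatment and between 2.88 and 5.44 in all other libraries. It differed between AtCEP5 and mock by −0.16 ± 0.23, 0.01 ± 0.23 and 0.00 ± 0.23 at 6, 12 and 24 h, and the libraries overlapped each time. Against before treatment its 6 differences lay between −0.55 and −0.12 and did not pass. It passed as lower without 1 library at 12 h, without AtCEP5 replicate 2 (−0.84, edgeR adjusted p = 0.0177) or mock replicate 2 (−0.74, 0.0294). It also passed in mock roots at 12 h without both libraries high in ribosomal RNA (−0.57, 0.0487), a setting chosen after the data were seen.

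PIF5 had 1 to 32 reads per library. It was at 0.966, 0.757 and 2.52 CPM before treatment, at 0.259–1.26 in mock roots and at 0.078–1.72 with AtCEP5, with overlap between the treatments at all 3 times. Its differences between AtCEP5 and mock were −0.04 ± 0.78, 0.52 ± 0.68 and 0.64 ± 0.64 and did not pass. In mock roots it stood −1.46 ± 0.69 from before treatment at 6 h and −1.12 ± 0.65 at 12 h. These passed only without 1 library, mock replicate 1 at 6 h (−2.29, edgeR adjusted p = 0.0499) or mock replicate 2 at 12 h (−2.07, 0.0479).

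Of the 87 PIF4 reads 69 came from before treatment, in libraries of 6, 9 and 54 reads. Mock roots held 3, 2 and 8 reads at 6, 12 and 24 h over 3 libraries each, and AtCEP5 roots held 0, 2 and 3. The library with 54 reads is the third, whose photosynthesis genes summed to 2765 FPKM, and it also held 32 of the 55 PIF5 reads of that group. Relative to before treatment PIF4 was at least 7.66-fold lower with AtCEP5 at 6 h, taking 3 counts per library as the floor for 0 reads, and at least 2.37-fold lower without the third library. This bound covers counting error only. With no filter on low counts PIF4 passed as lower than before treatment in all 6 comparisons, with edgeR adjusted p from 6.2e-04 to 0.0162, and in none of the 3 comparisons of AtCEP5 with mock. The 6 comparisons share the libraries taken before treatment, and the fit with no filter was not repeated without the third. The part of green tissue in these reads was not tested.

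**Figure D3:**
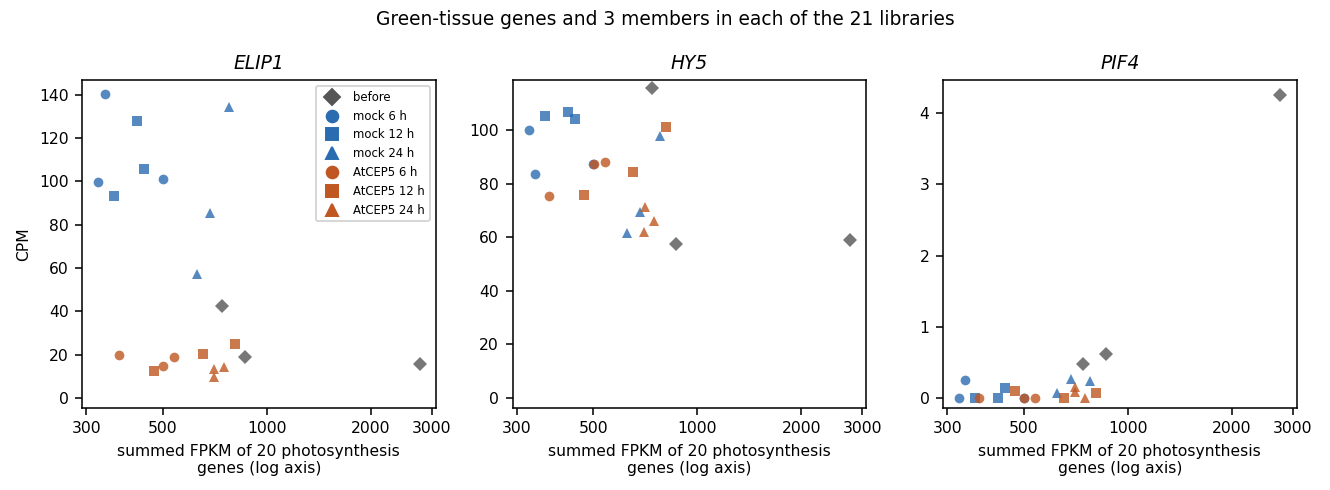
Level (CPM, linear axis) of ELIP1, HY5 and PIF4 against the summed FPKM of 20 photosynthesis genes (log axis) in each of the 21 libraries, by group. In ELIP1 the mock libraries lie above the AtCEP5 libraries. Photosynthesis sums of mock and AtCEP5 libraries overlap at 6 and 24 h and not at 12 h, with 362–442 FPKM in mock and 471–809 with AtCEP5. HY5 is highest in a library taken before treatment with a sum of 741 FPKM, and PIF4 is highest, at 4.25 CPM, in the one with 2765.

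Counted over the 8 tested members, AtCEP5 against mock gave 0 higher and 3 lower at 6 h (ELIP1, ELIP2 and PIL1), 1 higher (HFR1) and the same 3 lower at 12 h, and 0 higher and 2 lower at 24 h (the ELIP genes). Over all 19938 genes tested 11.3%, 12.1% and 7.81% passed in either direction, with 5.33%, 5.41% and 4.12% lower and 5.94%, 6.71% and 3.70% higher. The members were named with this comparison in view, and nothing is read from their share. In mock against before treatment 3 were higher and 1 lower at 6 h, where 38.7% of all genes passed (18.2% higher and 20.5% lower). At 12 and 24 h 2 were higher and 1 lower, where 37.4% of all genes (17.7% higher and 19.7% lower) and 35.1% (16.6% higher and 18.5% lower) passed, so these shares are near the background. In AtCEP5 against before treatment 1 of 8 passed at each time, HFR1, PIL1 and ELIP1 in turn and each lower, under the background of 27.7%, 23.7% and 28.0%, of which 14.6%, 13.2% and 15.2% were lower and 13.1%, 10.5% and 12.8% higher. No member's AtCEP5 effect differed between times by edgeR or by DESeq2 after adjustment. At an unadjusted p under 0.05 there was 1 for 12 h minus 6 h (HFR1), 2 for 24 h minus 12 h (HFR1 and PIL1) and 0 for 24 h minus 6 h, and 0.00502%, 0.0150% and 0.0100% of all genes passed these tests.

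Across the 21 libraries log2 CPM of ELIP1 and ELIP2 had a Pearson correlation of 0.91, HY5 and HYH of 0.79, ELIP1 and HYH of 0.76, and ELIP2 and HFR1 of −0.74. These are descriptions over libraries that share groups, and the group differences above enter them. Among 8240 named genes the closest to ELIP1 were ABCI20 (0.97), ABCI21 (0.97) and UGT78D2 (0.96), and the closest to ELIP2 were UGT84A2 (0.95), EIF2 ALPHA (0.94) and NDL2 (0.94). HFR1 was closest to BBD1 (0.91), BCA6 (0.91) and SWEET16 (0.90). HY5 was closest to the clock gene ELF4 (0.84), then RHA2A (0.83) and SWEET17 (0.82), and HYH to NRPB7 (0.87), GSTU5 (0.86) and EDF3 (0.86). The rarer genes had looser neighbours: PIL1 had CSLC12 (0.81), bHLH093 (0.81) and MKK5 (0.80), PIF3 had NTL (0.80), TFIIS (0.77) and 2A6 (0.75), and PIF5 had PGGT-I (0.76), ATHAL3B (0.74) and bZIP58 (0.70).

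Other genes of the pathway were read from lists chosen with earlier results of these data known. With AtCEP5 against mock 5.33%, 5.41% and 4.12% of all genes were lower at 6, 12 and 24 h. At these times 5.94%, 6.71% and 3.70% were higher. The replicate block over the 6 libraries at 6 h called 4802 genes over the whole table, against 2247 without it and with all libraries. Counts given below with that block thus stand against a higher background than these shares. Its SEs rest on few residual degrees of freedom. Of 9 genes linked to HY5 in flavonol synthesis and the UV-B response, F3H, MYB11 and MYB111 did not pass the low-count filter. They had 6, 65 and 11 reads over all libraries. F3H and MYB11 each overlap a gene on the opposite strand, so strand could matter to their counts. The other 6 genes were tested. With AtCEP5 4, 5 and 4 of these 6 were lower than mock at 6, 12 and 24 h and 0 were higher, with a list median of −0.83, −0.96 and −0.97 against 0.01, −0.02 and 0.00 over all genes. With the replicate block over the 6 libraries at 6 h 5 of 6 were lower, CHS passing as well (−0.52 ± 0.10, edgeR adjusted p = 0.0015). FLS1, which makes flavonols, was at 556, 502 and 536 CPM in mock roots and at 346, 272 and 231 with AtCEP5 at 6 h. It was lower by −0.91 ± 0.17 at 6 h, −1.23 ± 0.17 at 12 h and −1.60 ± 0.17 at 24 h (edgeR adjusted p of 0.00107, 3.5e-05 and 3.21e-06). CHI, the chalcone isomerase, was lower by −1.17 ± 0.19, −1.09 ± 0.19 and −1.51 ± 0.19 (1.84e-04, 2.92e-04 and 1.55e-05). Both held without each library in turn. RUP2, a repressor of the UV-B receptor, was lower by −0.76 ± 0.18 at 6 h (edgeR adjusted p = 0.00651).

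MYB12, an activator of flavonol synthesis, was lower at 12 h by −1.46 ± 0.30 (edgeR adjusted p = 0.00172). With the replicate block over the 6 libraries at 6 h it was lower too (−0.97 ± 0.13, edgeR adjusted p = 7.04e-05). RUP2, MYB12 and CHS are given where they were among the 3 smallest adjusted p, and may have passed at other times. CHS, the chalcone synthase, was lower at 24 h by −1.07 ± 0.18 (4.78e-04), and it overlaps a gene on the opposite strand, so its counts are uncertain where strand was not used. Since before treatment the same list had risen in mock roots, with 5, 5 and 4 of 6 higher at 6, 12 and 24 h and 0 lower. Over all genes 18.2%, 17.7% and 16.6% were higher and 20.5%, 19.7% and 18.5% lower. CHI was higher by 2.85 ± 0.20 at 6 h, 2.71 ± 0.20 at 12 h and 2.52 ± 0.20 at 24 h (edgeR adjusted p of 1.02e-09, 1.55e-09 and 4.12e-09). With AtCEP5 3, 4 and 2 of 6 were higher than before treatment, against 13.1%, 10.5% and 12.8% of all genes. In these roots CHI was higher by 1.68 ± 0.19, 1.62 ± 0.19 and 1.01 ± 0.19 (edgeR adjusted p of 1.17e-06, 1.99e-06 and 3.87e-04). CHI with AtCEP5 thus lay between its levels before treatment and in mock roots, whereas ELIP1 with AtCEP5 was not called above its level before treatment at any time. ELIP2 with AtCEP5 differed from before treatment by 0.55, 0.36 and 0.61 at 6, 12 and 24 h. It was not called with all libraries, but was called higher without the first library taken before treatment.

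B-box proteins bind HY5 or COP1, and some promote and some restrain the light response. Of 9 tested, 1 was higher and 4 lower than mock with AtCEP5 at 6 h, 0 and 3 at 12 h, and 0 and 2 at 24 h, with list medians of −1.45, −1.18 and −1.17. A replicate block over the 6 libraries at 6 h gave 2 higher and 5 lower of 8. The 2 higher were BBX20 (0.49 ± 0.08, edgeR adjusted p = 7.66e-04) and BBX21 (0.55 ± 0.10, 8.56e-04), named after their values were seen. They had the highest medians of the list, 67.8 and 117 FPKM. Summed FPKM of the 11 listed genes was 249–271 in mock and 268–316 with AtCEP5 at 6 h. It was 238–265 and 250–285 at 12 h, and 235–271 and 216–249 at 24 h. BBX24, a restrainer of the light response, was at 72.2, 64.6 and 49.9 CPM in mock roots and 21.3, 18.8 and 21.3 with AtCEP5 at 6 h. It was lower by −1.60 ± 0.21, −1.31 ± 0.21 and −1.17 ± 0.21 at 6, 12 and 24 h (edgeR adjusted p of 3.16e-05, 1.93e-04 and 8.6e-04). Its close relative BBX25 was lower by −2.14 ± 0.40 at 6 h (0.00102) and −1.91 ± 0.38 at 24 h (0.00213), and its 12 h call (−1.18 ± 0.39, 0.0489) was lost on leaving out any 1 of the 6 libraries other than AtCEP5 replicate 2 (up to 0.289).

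BBX20, BBX24 and BBX25 each overlap a gene on the opposite strand, so strand could matter to their counts. The small B-box protein gene BBX31 fell at 6 h (−2.37 ± 0.60, edgeR adjusted p = 0.0123), a call lost when AtCEP5 replicate 2, AtCEP5 replicate 3 or mock replicate 1 was left out (up to 0.0651). The related BBX30 passed at 12 h (−2.70 ± 0.86, 0.0414) and lost that call without any AtCEP5 library or mock replicate 1 (up to 0.405). Against before treatment BBX24 was lower with AtCEP5 by −1.56 ± 0.21 at 6 h (1.18e-05), −1.38 ± 0.21 at 12 h (6.06e-05) and −0.89 ± 0.21 at 24 h (0.00288). Mock roots held 49.9–72.2 CPM at 6 h against 51.7–71.0 before.

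Of 10 photoreceptor genes 3, 2 and 2 were higher with AtCEP5 at 6, 12 and 24 h and 0 lower, with list medians of 0.16, −0.02 and −0.05. CRY1, a blue-light receptor, was at 30.2, 29.0 and 32.7 CPM in mock roots and at 45.9, 49.2 and 53.5 with AtCEP5 at 6 h, and it was higher by 0.69 ± 0.12, 0.60 ± 0.12 and 0.53 ± 0.12 at the 3 times (edgeR adjusted p of 4.08e-04, 0.00111 and 0.0055). CRY2 was higher by 0.67 ± 0.12, 0.50 ± 0.12 and 0.43 ± 0.12 (6.54e-04, 0.00697 and 0.0253), the last lost on leaving out AtCEP5 replicate 1, AtCEP5 replicate 2, mock replicate 1 or mock replicate 3 (up to 0.113). PHYA, the far-red receptor, passed at 6 h (0.47 ± 0.14, 0.0362) and lost that call without any 1 library but mock replicate 1 (up to 0.139). Like HFR1, CRY1 had fallen in mock roots since before treatment, by −1.08 ± 0.12 at 6 h, −0.73 ± 0.12 at 12 h and −0.51 ± 0.12 at 24 h (3.08e-07, 4.67e-05 and 0.00173).

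Of the 8 genes of the COP1/SPA ligase and its partners 0 passed between AtCEP5 and mock at any time by edgeR or DESeq2, with 1, 3 and 2 at an unadjusted p under 0.05 and medians of 0.06, −0.03 and 0.03. With the replicate block over the 6 libraries at 6 h, 1 passed as higher, SPA2 (0.52 ± 0.13, adjusted p = 0.00864), named after its value was seen. Of 6 other bHLH genes tested 1 was higher and 0 lower at each time (medians −0.10, −0.04 and −0.14), or 1 and 1 at 6 h with the block. The 1 that was higher was PAR1, which like HFR1 binds other bHLH proteins without binding DNA. PAR1 was higher by 1.14 ± 0.28, 0.93 ± 0.27 and 1.39 ± 0.26 (edgeR adjusted p of 0.00855, 0.0231 and 0.00143). The 6 h call was lost without mock replicate 1 (0.0541), and the 12 h call on leaving out AtCEP5 replicate 1, AtCEP5 replicate 2, mock replicate 2 or mock replicate 3 (up to 0.111).

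Of 5 phytochrome A signalling factors 0 were higher at any time and 1, 0 and 0 lower at 6, 12 and 24 h (medians 0.13, 0.10 and 0.11), or 1 higher and 1 lower at 6 h with the block. The 1 lower without it was FHL, which helps bring phytochrome A into the nucleus (−1.52 ± 0.44, edgeR adjusted p = 0.0268), which lost the call without any 1 library but mock replicate 1 (up to 0.111). Of 8 genes that shade or PIF proteins induce 0 were higher and 1, 2 and 1 lower (medians −0.68, −0.11 and −0.02), or 1 higher and 2 lower of 7 at 6 h with the block. YUC9, an auxin synthesis enzyme, was lower at 6 h (−1.35 ± 0.30, 0.00405) and 12 h (−1.24 ± 0.29, 0.00598). IAA19, an auxin-induced repressor, was lower at 12 h (−0.74 ± 0.19, 0.0105) and 24 h (−0.87 ± 0.19, 0.0039), the 12 h call being lost when AtCEP5 replicate 2, AtCEP5 replicate 3 or mock replicate 1 was left out (up to 0.0626).

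Of 7 relatives of the ELIP proteins 0 were higher and 1, 0 and 1 lower with AtCEP5 at 6, 12 and 24 h (medians 0.04, 0.15 and −0.36), or 2 lower at 6 h with the block. The 1 was PSBS, which dissipates excess light energy in photosystem II. PSBS was at 50.4, 38.9 and 39.2 CPM in mock roots and at 19.4, 24.1 and 21.9 with AtCEP5 at 24 h, lower by −0.97 ± 0.19 (edgeR adjusted p = 0.00222). Its 6 h value was −0.80 ± 0.19 (0.00807), and that call was lost without AtCEP5 replicate 2 or mock replicate 3 (up to 0.0706). PSBS had risen in mock roots over before treatment by 1.77 ± 0.20, 1.21 ± 0.20 and 1.82 ± 0.20 (5.04e-07, 6.82e-05 and 5.53e-07). With AtCEP5 it was also above before treatment, by 0.97 ± 0.20, 0.99 ± 0.20 and 0.85 ± 0.20 (9.45e-04, 9.63e-04 and 0.00319).

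Of 9 tested genes of chlorophyll synthesis and greening 1, 1 and 0 were higher and 0 lower with AtCEP5 (medians 0.01, 0.14 and 0.04). PORB, a protochlorophyllide reductase whose gene overlaps another on the opposite strand, passed at 6 h (0.81 ± 0.25, edgeR adjusted p = 0.0374) and lost the call on leaving out AtCEP5 replicate 2, AtCEP5 replicate 3, mock replicate 1 or mock replicate 2 (up to 0.197). HEMA1, a glutamyl-tRNA reductase at the start of tetrapyrrole synthesis, passed at 12 h (0.54 ± 0.13, 0.00818). Of 11 clock genes 1, 0 and 0 were higher and 4, 2 and 2 lower (medians −0.46, −0.09 and −0.17), or 2 higher and 5 lower at 6 h with the block. GI, a clock protein that also acts in light signalling, was at 89.6, 71.0 and 53.7 CPM in mock roots and at 28.8, 24.0 and 16.4 with AtCEP5 at 6 h. It was lower by −1.63 ± 0.20, −1.81 ± 0.21 and −2.14 ± 0.22 (1.49e-05, 4.53e-06 and 1.83e-06) and held without each library in turn.

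**Figure D4:**
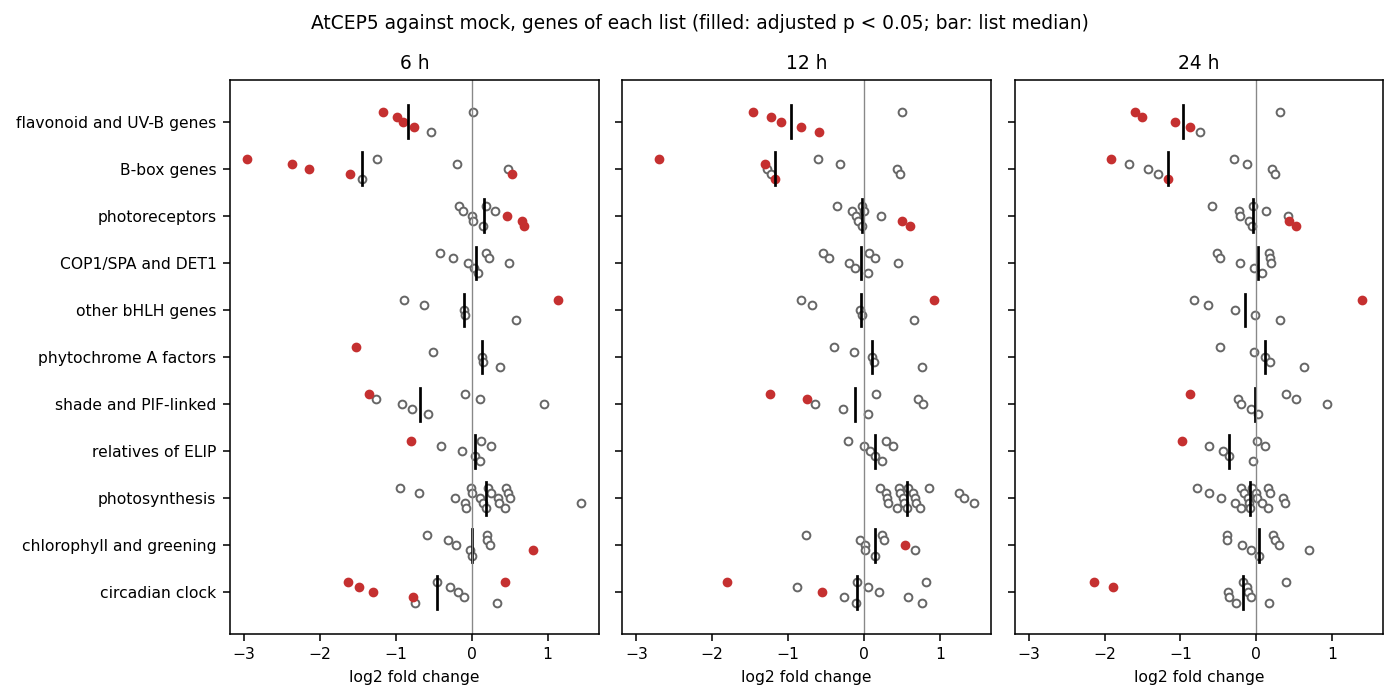
Log2 fold change of AtCEP5 against mock at 6, 12 and 24 h (panels) for the tested genes of 11 lists (rows), with filled points for an adjusted p under 0.05 in edgeR and bars for list medians. The flavonol and UV-B genes have medians of −0.83, −0.96 and −0.97, the B-box genes of −1.45, −1.18 and −1.17, and of the photosynthesis genes 0 of 19 are filled.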

How the data were processed

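Per the labels, root RNA was taken up in TRIzol, treated with DNase, selected for poly-A and built into TruSeq libraries. The authors deposited counts per gene and FPKM for 21 libraries. The tools named are HTSeq, StringTie 2.1.3 and STAR 2.7.8a, per the submitters' processing notes. For the genome build and the use of strand, the value is not given in the sources used here. Among the 32833 genes, 32532 had the same start and end in TAIR10.1, all 9 members among them. All 461492 deposited FPKM values above 0 were 10 times the FPKM recomputed from the counts (tolerance 0.0001), so they were divided by 10.

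Counts of all 21 libraries were fitted together in edgeR 4.0.16 (R 4.3.3, quasi-likelihood, TMM scaling, edgeR's low-count filter), as 7 group means (residual degrees of freedom: 14). P-values were adjusted by Benjamini-Hochberg over 19938 genes, and an adjusted p under 0.05 was called. Each SE of an edgeR log2 fold change was derived from the test, as its absolute value divided by the square root of the F statistic. Rose, fell, higher and lower refer to the first group named. Alternatives used DESeq2 1.42.0, its size factors, other filters, a replicate block, limma 3.58.1 on log2 FPKM (pseudocount 1 or 0.1), fewer libraries, and each library left out. Libraries of the same replicate number deviated together in AtCEP5 and mock at 6 h (correlations 0.182, 0.117 and 0.241, minimum set at 0.1) and in no other comparison by that rule. The members and all gene lists were chosen with earlier results of these data known. All members are named, and of each list up to 3 passing genes with the smallest adjusted p per comparison, with 3 nearest genes per member by correlation of log2 CPM (prior count 2, mean of at least 1 CPM).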

Additional observations from a re-analysis of the deposited data

How the results depend on the processing

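ELIP1 and ELIP2 against mock at 3 times, HFR1 against mock at 12 h and the mock changes of ELIP1, ELIP2 and HFR1 kept direction and call in every alternative run. The calls of PIL1 at 6 h and HYH at 6 h in mock roots did not, as given with each. PIL1 at 6 h also missed with limma on log2 FPKM + 1 (adjusted p = 0.0765), with no filter (0.0508) and with only the 6 libraries (0.0751). The cause was not tested. Reads were fewest for PIF4, PIF5 and PIL1, at 87, 228 and 329 over the 21 libraries.

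Counts of genes called over the whole table moved as follows. For AtCEP5 against mock, the 6 libraries with a replicate block gave 4802 genes at 6 h against 2247, and 600 at 24 h against 1558, where the 6 libraries without a block gave 897. Leaving out 1 library gave 1234–1909 at 6 h, 1443–2529 at 12 h and 980–1632 at 24 h. Against before treatment, a replicate block over 6 libraries gave 4677 for mock at 6 h, 3291 for AtCEP5 at 6 h and 3034 for AtCEP5 at 24 h, and the 6 libraries alone gave 4285 for mock at 24 h and 2909 for AtCEP5 at 12 h. The replicate block changed no call of the members against mock other than HYH at 6 h, and against before treatment it ended those of ELIP1 at 24 h (−0.90, adjusted p = 0.137) and PIL1 at 12 h (−1.57, 0.0714) with AtCEP5 and of HYH at 6 h in mock roots (0.88, 0.0555), each over 6 libraries. Against before treatment 1 member was called with AtCEP5 at each time, and 2 with DESeq2 or with no filter, which test PIF4 as well. With only the 6 libraries, blocked or not, 0 were called at 12 and 24 h, and at 12 h 0 with limma on log2 FPKM + 1 or without both libraries of high ribosomal RNA. Leaving out 1 library gave 1–3 at 6 h, 0–2 at 12 h and 0–2 at 24 h. For mock at 12 h 3 members were called, 3–5 without 1 library and 5 without both libraries of high ribosomal RNA. Counts for the difference of the AtCEP5 effect stayed small: for 12 h minus 6 h 1 gene, 9 with DESeq2, 4 with limma on log2 FPKM + 1 and 2 without both libraries of high ribosomal RNA, an alternative chosen after seeing the data. For 24 h minus 12 h there were 3, against 7 with DESeq2, 5 with no filter, 7 without those libraries and 1–7 without 1 library. For 24 h minus 6 h there were 2, against 16 with DESeq2, 5 with limma at either pseudocount, 7 with no filter and 2–5 without 1 library.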
